A study of Mus musculus with 6 samples.

Results

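Expression of 10 transcription factor genes of T-lineage commitment was followed in DN3 thymocytes, and 4 of the 10 were higher in cells whose Myc enhancer NMe carries mutated GATA sites, where 7.94% of all tested genes were called higher and 10.9% lower. The members were taken by symbol, Gata3, Tcf7, Lef1, Bcl11b, Tox, Satb1, Runx1, Runx3, Myb and Ets1, through the Ensembl identifiers of GENCODE M21. All 10 were among the 21135 listed genes, and all 10 passed the filter on low values that left 17815 genes for testing. The mutant to wild-type ratio of mean levels was 2.24 for Lef1, 1.73 for Tox, 1.55 for Gata3 and 1.41 for Myb. None of the 10 was called lower, and Tcf7, the most abundant of them, had a mean 1.18-fold lower in the mutant without passing the test.

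Bulk RNA was sequenced from DN3 thymocytes of C57BL/6 mice, in 3 libraries homozygous for mutations of GATA sites 1 and 2 in NMe and 3 libraries wild type for NMe. NMe is a distal enhancer of Myc that is bound by Notch1 in thymocytes, and GATA sites are the motifs that Gata3 recognises. All 6 libraries share the strain, and the labels give neither age nor sex nor whether each library came from its own animal. The comparison addresses what happens to the T-lineage factors when these sites of the Myc enhancer are lost.

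Early T cells become committed when Notch signals in the thymus switch on a small set of DNA-binding proteins. Tcf7 and Gata3 act first, and Bcl11b closes off other fates before cells reach DN3. Runx and Ets proteins, Myb, and the chromatin proteins Satb1 and Tox work beside them, and several of these factors activate one another. DN3 cells then rearrange the T-cell receptor beta gene.

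The libraries held 38591038 to 51306934 recovered reads, and the lowest count of any member in any library was 1242 reads (Runx3). Myc itself was 5562, 4612 and 6165 normalised reads in the mutant libraries, against 18041, 19223 and 20196 in the wild-type libraries (log2 change -1.82 ± 0.12, adjusted p = 4.22e-05). Over all tested genes 3352 were called (18.8%), 1414 higher (7.94%) and 1938 lower (10.9%) in the mutant, and with equal library totals the split was 1827 higher and 1647 lower. When wild-type replicate 2 was left out, 1905 genes were called. Across the 17815 genes the median log2 change was 0.03. Wild-type replicate 3 stood apart on the second principal component of the log2 values (17.1% of the variance), at -55.1 against 23.4 and 33.9 for the other wild-type libraries and -17.0 to 11.5 for the mutant libraries. The DN3 markers Il2ra (96837 to 110890.4 normalised reads in the mutant and 55810.2 to 61247 in the wild type) and Ptcra were abundant, while the later markers Cd4 and Cd8a averaged 33.7 and 25.6 normalised reads in the mutant and 65.6 and 45.7 in the wild type. The Y-linked genes Ddx3y, Eif2s3y, Kdm5d and Uty were read in all 6 libraries.

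The start regions of the members are shown because the mutated sites are GATA motifs and Myc binds the E-box CACGTG. RefSeq (GRCm38.p6) gave 18 start windows for 8 members, with none for Tox and Ets1, and the 250 bases before each start were searched on both strands. For 11 of the 18, the first 25 bases after the start were found in a GENCODE transcript of the gene. Of these, 10 were among the 12 windows on the minus strand, whereas Lef1 is on the plus strand. The GATA motif was taken as GATA after A or T (AGATAA, or the same word ending in G, and TGATAA, or the same word ending in G), and it lay in 26.5% of all 32851 such windows and in 1 of the 18 member windows. CACGTG lay in 6.02% of all windows and in 2 of the 18, at Lef1 and Runx1. CTTTGA, a TCF core, lay in 13.8% of all windows and 2 of the 18 (Bcl11b and Lef1), and TGTGGT, a RUNX core, in 14.0% of all windows and 1 of the 18 (Runx3). Windows are given below for Lef1, Gata3 and Myb, called members that had one, with GATA and CACGTG matches in capitals; the first Lef1 window, at the outermost of 4 RefSeq starts, and those of Gata3 and Myb held neither. The inner Lef1 window lies in an intron of Lef1, with TGATAA beginning 195 bases and CACGTG 79 bases before that start. The Gata3 window lies inside the annotated span of Gata3, whose upstream end, at 9890034, had no window. A match says only that these letters are present.
Lef1 outer start, chr3:131110047-131110296, plus strand: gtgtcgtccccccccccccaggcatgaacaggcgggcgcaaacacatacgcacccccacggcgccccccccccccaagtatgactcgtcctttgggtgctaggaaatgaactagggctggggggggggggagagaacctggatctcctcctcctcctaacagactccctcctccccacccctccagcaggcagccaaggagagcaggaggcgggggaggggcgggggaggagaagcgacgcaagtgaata
Lef1 inner start, chr3:131156044-131156293, plus strand: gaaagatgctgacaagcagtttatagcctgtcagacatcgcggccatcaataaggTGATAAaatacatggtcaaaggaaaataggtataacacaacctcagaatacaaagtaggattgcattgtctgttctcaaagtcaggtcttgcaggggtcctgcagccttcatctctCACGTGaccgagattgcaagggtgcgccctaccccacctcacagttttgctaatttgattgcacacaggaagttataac
Gata3, chr2:9878601-9878850, minus strand: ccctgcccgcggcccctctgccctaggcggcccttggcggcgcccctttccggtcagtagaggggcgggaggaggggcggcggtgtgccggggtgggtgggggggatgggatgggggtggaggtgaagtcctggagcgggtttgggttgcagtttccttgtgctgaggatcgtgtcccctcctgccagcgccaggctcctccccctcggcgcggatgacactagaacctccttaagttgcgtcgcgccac
Myb, chr10:21160985-21161234, minus strand: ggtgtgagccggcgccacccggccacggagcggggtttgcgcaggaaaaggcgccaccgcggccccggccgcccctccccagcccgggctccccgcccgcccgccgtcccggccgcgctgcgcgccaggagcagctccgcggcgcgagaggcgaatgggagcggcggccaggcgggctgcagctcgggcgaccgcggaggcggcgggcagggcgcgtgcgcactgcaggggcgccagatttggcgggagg

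**Figure D1:**
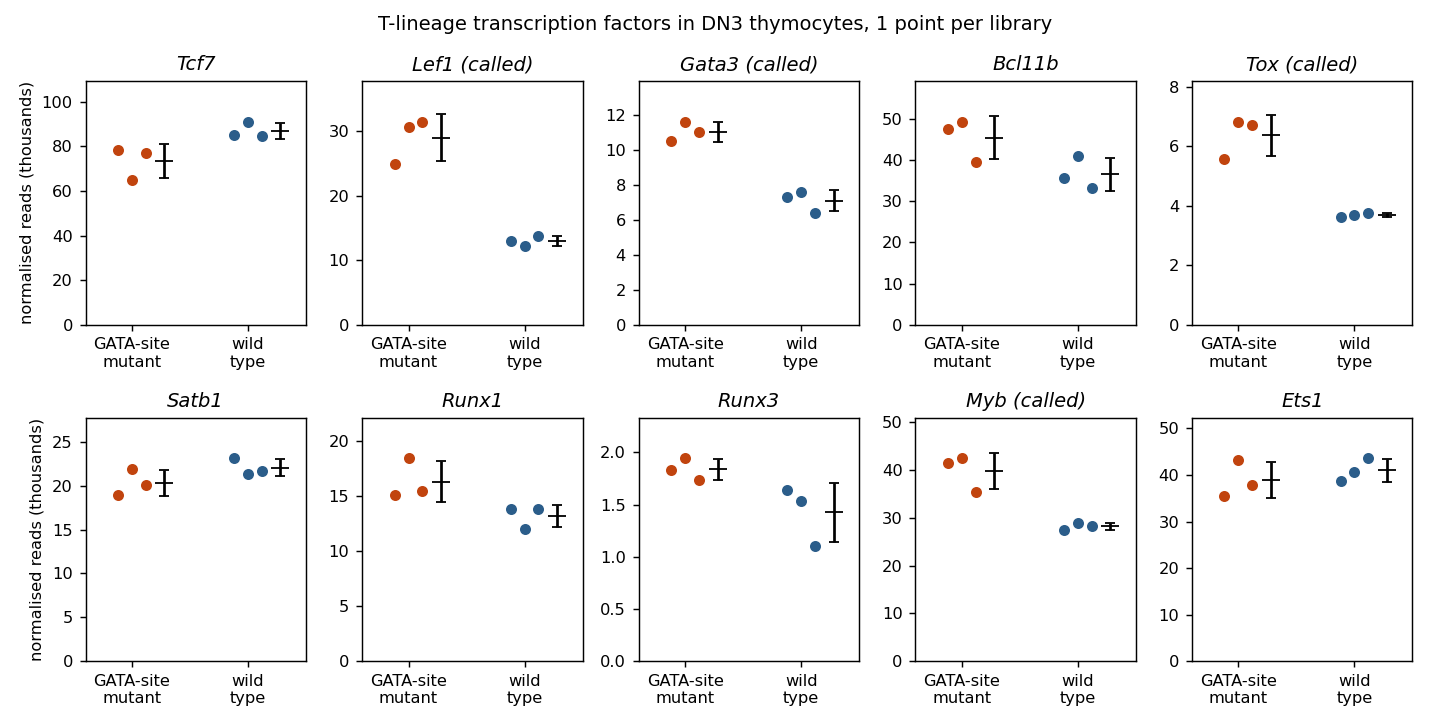
Normalised reads (axes from 0, scaled as labelled) of each factor in every library, with the 3 GATA-site mutant libraries left of the 3 wild-type libraries and the mean ± SD beside each group. The mutant points of Lef1, Gata3, Tox, Myb, Runx1 and Runx3 all lie above the wild-type points, and those of Tcf7 all lie below.

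Between the genotypes, a gene is called here when its adjusted p is under 0.05 in limma's test over all 17815 genes, on log2(value + 1), mutant minus wild type. Of the 10 members 4 were called higher and 0 lower, beside 7.94% and 10.9% of all tested genes. With equal library totals 6 members were called higher, adding Bcl11b and Runx1. More of all 17815 genes were called higher at that setting too, 1827 against 1414. The libraries of the genotypes did not overlap for 7 of the 10 members, against 38.3% of all tested genes, with the mutant higher for 6 (18.0% of all tested genes) and lower for 1 (20.3%). The median log2 change of the members was 0.35, and 8 of the 10 had an unadjusted p under 0.05, as did 33.3% of all tested genes (5940 genes). In bulk RNA, more RNA of a gene per cell and more cells that carry it cannot be told apart.

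Of the TCF/LEF pair, Tcf7 was the most abundant member and Lef1 had the largest change of the 10. Tcf7 (ENSMUSG00000000782.15, chromosome 11, 52252371 to 52283014) encodes TCF-1, which Notch1 induces in the earliest thymic progenitors. It had 78217, 64864 and 77161 normalised reads in the mutant libraries, against 85162, 91066 and 84717 in the wild-type libraries. All mutant values lay below all wild-type values, and the log2 change of -0.25 ± 0.10 (95% confidence interval -0.46 to -0.03) did not pass the test over all genes (adjusted p = 0.102). With library weights it was called lower (-0.32, adjusted p = 0.0316), and without mutant replicate 2 the change was -0.16.

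Lef1 (ENSMUSG00000027985.14, chromosome 3, 131110471 to 131224356) encodes the related HMG-box protein LEF-1, which overlaps with TCF-1 in function in thymocytes. It had 24844, 30709 and 31482 normalised reads in the mutant libraries, against 13010.0, 12158 and 13744 in the wild-type libraries. The lowest mutant library was well above the highest wild-type library, and the change was 1.16 ± 0.11 (95% confidence interval 0.91 to 1.40, limma adjusted p = 0.000187). The gene count of Lef1 is not split by start, so the inner start printed above cannot be separated from the outer ones.

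The balance within the pair moved. The log2 ratio of Lef1 to Tcf7 reads was -1.65, -1.08 and -1.29 in the mutant libraries, against -2.71, -2.90 and -2.62 in the wild-type libraries. The ratios did not overlap, and the mean was -1.34 ± 0.29 in the mutant and -2.75 ± 0.14 in the wild type (SD, n = 3 each). The difference of 1.40 is a 2.65-fold higher ratio in the mutant (two-sided exact permutation test, p = 0.1, the smallest that 3 against 3 libraries allow). Leaving out 1 library at a time gave differences of 1.27 to 1.56.

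**Figure D2:**
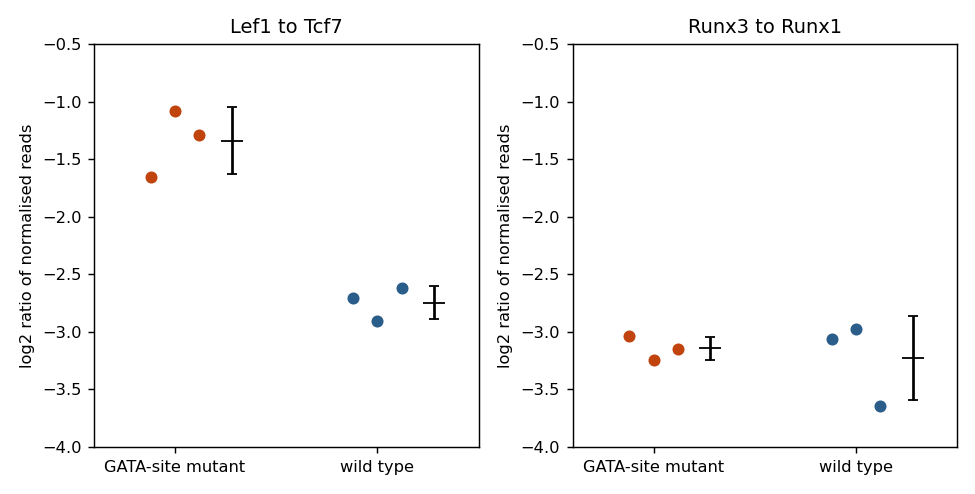
Log2 ratio of normalised reads within each library for Lef1 to Tcf7 (left) and Runx3 to Runx1 (right), mutant libraries left of wild-type libraries, mean ± SD beside them. The Lef1 to Tcf7 ratios separate by genotype, and the Runx3 to Runx1 ratios overlap, with wild-type replicate 3 lowest at -3.64.

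Gata3 (ENSMUSG00000015619.10, chromosome 2, 9857078 to 9890034) encodes the zinc-finger protein that T cells need from their first thymic stages onward. It had 10492, 11608 and 10993 normalised reads in the mutant libraries, against 7314, 7567 and 6414 in the wild-type libraries. The groups did not overlap, and the spread within each was small beside the gap (11031 ± 559 in the mutant and 7098 ± 606 in the wild type, SD, n = 3 each). The change was 0.64 ± 0.10 (95% confidence interval 0.42 to 0.86, limma adjusted p = 0.00208).

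Bcl11b (ENSMUSG00000048251.15, chromosome 12, 107910403 to 108003602) encodes the repressor that marks commitment and holds back progenitor and natural killer programmes. It had 47434, 49291 and 39560.4 normalised reads in the mutant libraries, against 35496, 40922 and 33171 in the wild-type libraries. Mutant replicate 3 lay below wild-type replicate 2, so the groups overlapped. The change was 0.31 ± 0.11 (95% confidence interval 0.06 to 0.57) and did not pass (limma adjusted p = 0.0831). When mutant replicate 3 was left out it was called (0.41, adjusted p = 0.0334), and likewise at equal library totals (0.37, adjusted p = 0.0363).

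Tox (ENSMUSG00000041272.11, chromosome 4, 6686353 to 6991557) encodes an HMG-box protein of T-cell and innate lymphoid development. It had 5581, 6835 and 6710.4 normalised reads in the mutant libraries, against 3633, 3696 and 3752 in the wild-type libraries. The wild-type libraries were nearly level (SD 59.5 about a mean of 3694), and every mutant library exceeded them. The change was 0.78 ± 0.11 (95% confidence interval 0.54 to 1.02, limma adjusted p = 0.00111).

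Satb1 (ENSMUSG00000023927.15, chromosome 17, 51736187 to 51833290) encodes a chromatin organiser rich in thymocytes. It had 18983, 21829 and 20041 normalised reads in the mutant libraries, against 23097, 21353 and 21713 in the wild-type libraries. Mutant replicate 2 fell among the wild-type values. The change was -0.12 ± 0.09 (95% confidence interval -0.32 to 0.08, limma adjusted p = 0.373).

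Runx1 (ENSMUSG00000022952.16, chromosome 16, 92601466 to 92826149) and Runx3 (ENSMUSG00000070691.10, chromosome 4, 135120652 to 135177990) encode DNA-binding partners of the same subunit, Cbfb. Runx1 had 15070.2, 18396 and 15421 normalised reads in the mutant libraries, against 13769, 12029 and 13799 in the wild-type libraries. Runx3, which takes part in CD4 silencing and CD8 fate, had 1832, 1943 and 1734 in the mutant libraries, against 1645, 1532 and 1105 in the wild-type libraries. For both genes every mutant library was above every wild-type library, yet neither passed the test. The change was 0.30 ± 0.11 for Runx1 (95% confidence interval 0.06 to 0.54, limma adjusted p = 0.0778). It was 0.38 ± 0.16 for Runx3 (95% confidence interval 0.04 to 0.73, limma adjusted p = 0.116), and 0.21 without wild-type replicate 3. Runx1 was called with equal library totals (0.36, adjusted p = 0.0412) and with library weights (0.39, adjusted p = 0.023). The log2 ratio of Runx3 to Runx1 reads was -3.04, -3.24 and -3.15 in the mutant libraries, against -3.06, -2.97 and -3.64 in the wild-type libraries. These overlapped, and the difference of 0.08 (two-sided exact permutation test, p = 0.9) became -0.13 without wild-type replicate 3.

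Myb (ENSMUSG00000019982.15, chromosome 10, 21124935 to 21160984) encodes c-Myb, a factor of progenitor growth and thymocyte survival. It had 41435, 42359.5 and 35337 normalised reads in the mutant libraries, against 27399.7, 28892 and 28315 in the wild-type libraries. The groups did not overlap, and mutant replicate 3 was the lowest of the mutant libraries. The change was 0.49 ± 0.09 (95% confidence interval 0.28 to 0.70, limma adjusted p = 0.00636).

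Ets1 (ENSMUSG00000032035.15, chromosome 9, 32636221 to 32757820) encodes an ETS factor that works with Runx1 at T-cell genes. It had 35584, 43214 and 37815 normalised reads in the mutant libraries, against 38731, 40569 and 43554 in the wild-type libraries. The genotypes overlapped across most of their range. The change was -0.08 ± 0.10 (95% confidence interval -0.30 to 0.14, limma adjusted p = 0.62).

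**Figure D3:**
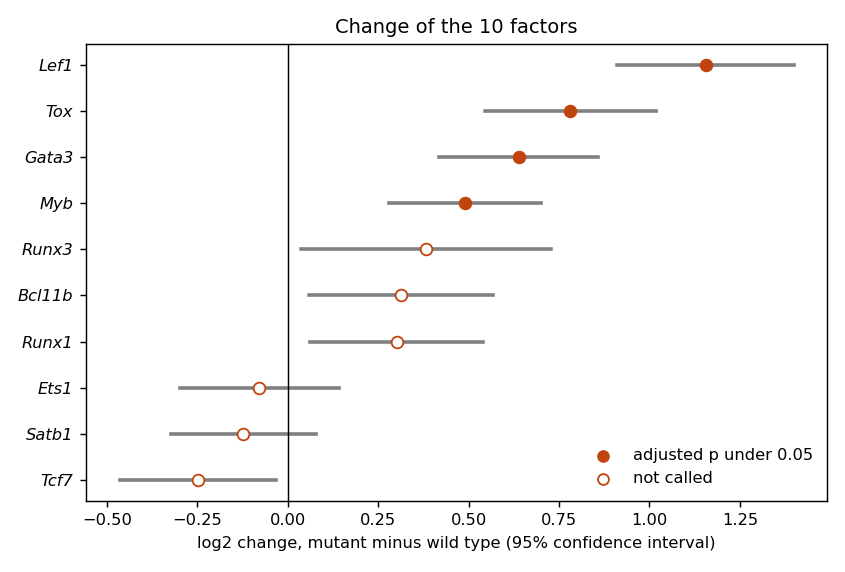
Log2 change of each factor, mutant minus wild type, with its 95% confidence interval; filled points have an adjusted p under 0.05. Lef1 (1.16), Tox (0.78), Gata3 (0.64) and Myb (0.49) are filled, and the intervals of Ets1 and Satb1 span 0.

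Set per kilobase of merged exon, Tcf7 led in both genotypes, at 27967 ± 2828 normalised reads per kilobase in the mutant and 33136 ± 1350.2 in the wild type (SD, n = 3 each). In the mutant Bcl11b (5601), Ets1 (4586) and Myb (4445) followed, each overlapping its neighbour. Lef1 (3301) and Gata3 (2773) came next and overlapped, ahead of Runx1 (1355), Satb1 (1066), Tox (838) and Runx3 (367), which were separate. In the wild type the order was Ets1 (4831) and Bcl11b (4504), overlapping, then Myb (3157), Gata3 (1784) and Lef1 (1476), each separate. Satb1 (1159) and Runx1 (1098) overlapped, and Tox (485) and Runx3 (285) were separate at the end. Lef1 per kilobase was thus below Gata3 in every wild-type library. Divided by the longest coding transcript instead of merged exons, Lef1 ranked above Gata3 in both genotypes, while Tcf7 stayed first and Tox and Runx3 stayed at the low end. The order between these changed as well. In the mutant Myb (10753) came next, then Lef1 (8332) and Ets1 (7652), overlapping, then Bcl11b (5601). In the wild type Ets1 (8061) and Myb (7637) overlapped and lay above Bcl11b (4504). Gata3 (2208) there lay below Satb1 (3533) and overlapped Runx1 (2252).

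Tox2, Gata1 and Tcf7l2, relatives of the members, were higher in the mutant, and Bcl11a was lower. Of the 12 tested paralogues 4 were called higher and 2 lower, against 7.94% and 10.9% of all tested genes. Their median log2 change was 0.04. Tox2 had 1668, 1474 and 1955 normalised reads in the mutant libraries, against 355, 435 and 284 in the wild-type libraries (2.26 ± 0.18, limma adjusted p = 0.000106), a 4.74-fold rise. Gata1, the erythroid GATA factor, had 969.9, 636 and 703 in the mutant libraries, against 372, 193 and 214 in the wild-type libraries (1.60 ± 0.26, limma adjusted p = 0.00266). Tcf7l2, another TCF/LEF gene, rose 1.8-fold (0.84 ± 0.14, limma adjusted p = 0.00314). Bcl11a, which serves B-cell and progenitor fates, fell to 304 ± 80.4 in the mutant, against 774 ± 224 in the wild type (SD, n = 3 each; -1.34 ± 0.24, limma adjusted p = 0.00452).

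The other called paralogues, named after their values were seen, were Runx2 (0.84 ± 0.18, limma adjusted p = 0.01) and the cell-cycle factor Mybl2 (-0.42 ± 0.12, limma adjusted p = 0.0396). Runx2 thus passed where Runx1 and Runx3 did not; whether these changes differ was not tested. The call of Mybl2 was lost on leaving out mutant replicate 1 (adjusted p = 0.105), mutant replicate 2 (0.12), wild-type replicate 2 (0.128) or wild-type replicate 3 (0.111), at equal library totals (0.0764) and with edgeR (0.0511). Summed erythroid markers were 73.9 to 103 normalised reads in the mutant libraries and 38.3, 98.6 and 8196 in the wild-type libraries, the last in wild-type replicate 2, which had the lowest Gata1. Their part in the Gata1 result was not tested.

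**Figure D4:**
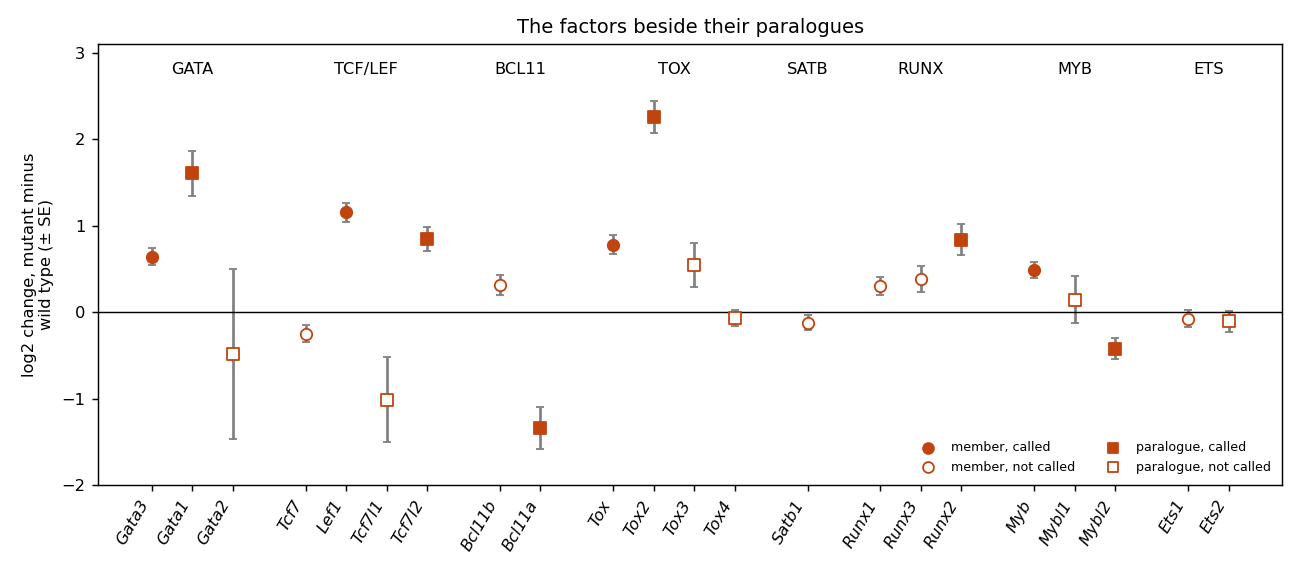
Log2 change (mutant minus wild type, ± SE) of the 10 factors (circles) and their 12 tested paralogues (squares) by family, filled where called. Tox2 (2.26) and Gata1 (1.60) lie above Tox (0.78) and Gata3 (0.64), and Bcl11a (-1.34) lies below 0 while Bcl11b (0.31) lies above.

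Of 16 tested genes that encode partners of these factors 0 were called higher and 2 lower, with a median log2 change of 0.09. Over all tested genes 7.94% were called higher and 10.9% lower. Ctnnb1, which encodes beta-catenin, the coactivator of TCF/LEF proteins, changed by -0.42 ± 0.12 (limma adjusted p = 0.039) and the deacetylase gene Hdac2 by -0.36 ± 0.11 (limma adjusted p = 0.0423). The count called lower was 0 at equal library totals and on leaving out mutant replicate 1, mutant replicate 3, wild-type replicate 2 or wild-type replicate 3. It was 1 when mutant replicate 2 was left out, with TMM scaling and with edgeR, and 3 with library weights. With wild-type replicate 1 left out, with the label number as a block or with DESeq2, 1 cofactor gene was called higher. The corepressor gene Tle3 (0.51 ± 0.17, limma adjusted p = 0.0686) and the histone-binding gene Rbbp4 (-0.28 ± 0.10, limma adjusted p = 0.0863) were not called. Cbfb, the partner of Runx proteins, had a change of -0.05 ± 0.11.

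T-cell genes that these factors are known to activate (24 genes, of which Zbtb7b was not analysed here) were called higher in 11 of 23 cases and lower in 1. The shares over all tested genes were 7.94% and 10.9%, and the median log2 change of the 23 was 0.38. Il2ra, the CD25 chain, rose 1.8-fold (0.85 ± 0.09, limma adjusted p = 0.000364), and the survival gene Bcl2 rose 2.04-fold (1.03 ± 0.13, limma adjusted p = 0.000847). The receptor genes Cd5 (1.03 ± 0.13) and Cd6 (0.76 ± 0.12) rose as well (limma adjusted p = 0.000901 and 0.00271). The gene called lower, Rag1 of the recombinase (named after its value was seen), changed by -0.58 ± 0.10 (limma adjusted p = 0.0035). On leaving out 1 library, the count called higher was 6 for mutant replicate 2 and 7 each for mutant replicate 1, wild-type replicate 2 and wild-type replicate 3.

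Genes of other fates that the factors are known to restrain were called higher in 1 of 15 cases and lower in 3. The shares over all tested genes were 7.94% and 10.9%, and the median log2 change of the 15 was 0.08. Gfi1b, a repressor of erythroid and megakaryocyte cells, had 12.7, 19.0 and 8.83 normalised reads in the mutant libraries, against 109, 113 and 101 in the wild-type libraries (-2.96 ± 0.37, limma adjusted p = 0.000773). Mef2c, a progenitor and B-cell factor, changed by -0.74 ± 0.20 (limma adjusted p = 0.0271), which was no longer called after removal of mutant replicate 1 (adjusted p = 0.0712), wild-type replicate 1 (0.0631) or wild-type replicate 3 (0.0899). Bcl11a, given above, was the third. Id2, the inhibitor of E proteins that innate lymphoid cells need, went the other way, at 4672, 3672 and 6126 in the mutant libraries, against 2633, 1961 and 1525 in the wild-type libraries (1.25 ± 0.22, limma adjusted p = 0.00385). Without mutant replicate 2 the count called lower was 5.

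Among 37 other tested transcription factors of the T lineage 7 were called higher and 1 lower, against 7.94% and 10.9% of all tested genes. Their median log2 change was 0.21. Besides Id2, which sits in both lists, Sox13 (0.61 ± 0.12, limma adjusted p = 0.00639) and Foxo1 (0.57 ± 0.13, limma adjusted p = 0.012) rose, and Spib, an ETS factor of dendritic and B cells, fell 2.14-fold (-1.15 ± 0.25, limma adjusted p = 0.0107). When wild-type replicate 2 was left out, the adjusted p of Foxo1 was 0.0536 and the count called higher was 3; that count was 11 with library weights or DESeq2. Leaving out mutant replicate 3 gave 2 called lower.

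Genes that lie over the members' loci were counted apart from them, and the library kit keeps no strand. Gm43352, annotated antisense to Lef1 with 1208 shared exon bases, had 594, 685 and 761 normalised reads in the mutant libraries, against 327, 362 and 288 in the wild-type libraries. Its change of 1.06 ± 0.17 (limma adjusted p = 0.0022) stood beside 1.16 for Lef1, and reads within the shared bases cannot be assigned to one gene or the other. The remaining exon bases of Gm43352, which spans 3.065 exon kilobases, lie outside the exons of Lef1. Gm26626, antisense to Runx1 with 106 shared exon bases, was called at low counts, 23.2, 42.6 and 29.8 in the mutant libraries against 5.30, 9.55 and 11.6 in the wild-type libraries (1.76 ± 0.50, limma adjusted p = 0.0363). That call held on leaving out wild-type replicate 3 and was lost on leaving out each of the other libraries, with an adjusted p as high as 0.136. The antisense genes of Tox (Gm11802, 1.87 ± 0.63, limma adjusted p = 0.0648, and 1.06 without wild-type replicate 2) and Myb (Gm26577, 1.40 ± 0.72, limma adjusted p = 0.201) were not called. At Tcf7 the antisense gene A630014C17Rik, with 0 shared exon bases, had 435, 359 and 385 normalised reads in the mutant libraries, against 296, 314 and 214 in the wild-type libraries (0.53 ± 0.20, limma adjusted p = 0.088). Its values lay higher in the mutant, where those of Tcf7 lay lower.

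Some genes of other loci had a profile close to that of a called member, measured as the root mean square difference of log2 values centred on each gene's mean over the 6 libraries. The 2 nearest of all tested genes were taken, so distances far below the median follow from that choice. For Tox the nearest were Sfxn4 (0.035) and the signalling gene Rasgrp1 (0.0545), against a median of 0.501 over all tested genes. For Gata3 they were Abca7 (0.0384) and Gm47572 (0.0484), against a median of 0.45. For Lef1 they were H2-Q5 (0.0706) and the receptor segment Trbv23 (0.0741), against a median of 0.657, and for Myb they were Anxa6 (0.0319) and E330034L11Rik (0.0322), against a median of 0.405. Gm47572 (limma adjusted p = 0.0685) and E330034L11Rik (limma adjusted p = 0.307) were not themselves called, and reads of H2-Q5 may be shared with other class I genes.

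Markers of other cells are given for the reading of these changes. The 12 DN3 markers, all tested, held 7 called higher and 1 lower, against 7.94% and 10.9% of all tested genes. Their summed levels were 448637 to 564364 normalised reads in the mutant libraries and 331655 to 363368 in the wild-type libraries. The 12 include Il2ra and other genes of the activated list. The largest levels were those of Cd3g, Lck and Il2ra (means of 140600, 119188 and 106147 in the mutant and 96028, 95166 and 58950 in the wild type). Rag1 was the DN3 marker called lower. Ptcra, Notch3 and Il7r, with positive changes, and Rag2 (-0.11 ± 0.14) were not called. Summed markers of early progenitors, 10 genes, were 2610 to 3589 in the mutant libraries and 3899 to 4862 in the wild-type libraries, and most of each sum was Kit (2260 ± 398.5 in the mutant and 3039 ± 400.4 in the wild type, SD, n = 3 each, limma adjusted p = 0.0715). Of the 9 tested, Cd44 (-1.45 ± 0.28, limma adjusted p = 0.00661) and Mef2c were called lower and 0 were called higher. Lyl1 (0.69 ± 0.36), Lmo2 (0.60 ± 0.42), Hhex (0.63 ± 0.53) and Flt3 (0.08 ± 0.42) had positive changes that did not pass. Cd34 (-1.20 ± 0.45), Spi1 (-0.65 ± 0.30) and Kit (-0.43 ± 0.15) had negative changes that did not pass. Markers of natural killer and innate lymphoid cells summed to 9325 to 18175 in the mutant libraries and 4519 to 7368 in the wild-type libraries, nearly all of it Nkg7 (9189.5 to 17979 in the mutant and 4393 to 7247 in the wild type), with Eomes under a mean of 10 and Ncr1 and Klrd1 not analysed here. Double-positive markers summed to 47105 to 54044 in the mutant libraries and 36193 to 38175 in the wild-type libraries, mostly Arpp21 (41339 ± 3601 in the mutant and 31126 ± 1453 in the wild type, SD, n = 3 each). Arpp21 and Cd1d1 were among those called higher, while the defining markers Cd4 (-0.94 ± 0.35) and Cd8a (-0.80 ± 0.39) had negative changes that did not pass. Gamma-delta and innate T markers summed to 14907 to 19790 in the mutant libraries and 13063 to 14043 in the wild-type libraries, mostly Gzma (11354 ± 2130.4 in the mutant and 9786 ± 544 in the wild type, SD, n = 3 each, limma adjusted p = 0.312). The other 3 of the 4 tested, Sox13, Maf and Blk, were called higher. Zbtb16 and Il23r were under a mean of 10, with Il23r at 0.368 ± 0.637 in the mutant and 8.92 ± 3.88 in the wild type (SD, n = 3 each). Sums overlapped between the genotypes for B-cell, myeloid, dendritic and stromal markers. B-cell sums (2438 to 3875 in the mutant and 2356 to 2782 in the wild type, with Ebf1 under a mean of 10) were nearly all Cd79b. Myeloid sums (1315 to 2248 in the mutant and 1225 to 1833 in the wild type) were mostly Lyz2. Dendritic sums (4240 to 5895 in the mutant and 4137 to 4627 in the wild type) were mostly Cst3. Stromal sums (9984 to 13544 in the mutant and 8229 to 10044 in the wild type) were nearly all Epcam and Pecam1. Pecam1 was called higher (0.41 ± 0.11, limma adjusted p = 0.0324). Some markers of each of these lists were not analysed here, among them Pax5, Elane, Clec9a and Krt5, so the sums rest on few genes. Of 13 immediate early and heat shock genes 4 were called higher and 0 lower, again beside 7.94% and 10.9% of all tested genes. Their sums overlapped, at 545884 to 944360 in the mutant libraries and 450889 to 743139 in the wild-type libraries. The part of these cells and of handling in the members' changes was not tested.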

How the data were processed

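RNA of 6 DN3 thymocyte libraries was extracted with a column kit, amplified as full-length cDNA with SMART-Seq v4 and tagged with Nextera XT, per the labels' protocols, so reads carry no strand. The tools named in the submitters' processing notes are DESeq2 1.20.0, featureCounts and STAR 2.5.3, with GRCm38 and mm10 as builds; how they were set was not given in the sources used here. What the authors deposited per gene is a normalised signal in which each library's counts are divided by its own size factor. This was settled from the values: 100.0% of 126810 came out as whole reads within 0.1 reads. No gene in the table has fewer than 20 reads over the 6 libraries. The count models alone used the recovered reads, 38591038 to 51306934 per library.

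Symbols, positions and exon lengths came from GENCODE M21 on GRCm38 (21100 of 21135 genes, 1834 of them matched without the version number), and start windows from RefSeq GRCm38.p6. Genotypes were compared with limma 3.58.1 in R 4.3.3 (eBayes with trend) on log2(value + 1), for the genes whose mean reached 10, two-sided, with Benjamini-Hochberg adjustment over all genes tested. Every adjusted p is from that fit unless another tool or setting is named. This scale understates changes of rare transcripts. Folds are ratios of mean normalised reads, errors of levels are SD and errors of log2 changes are SE. Alternatives were pseudocounts, filters, scalings, variance models, library weights, the label number as a block, leaving out each library, and edgeR 4.0.16, DESeq2 1.42.0 and voom on recovered reads (3283, 4168 and 3344 genes called). The fits were tested on simulated counts. Libraries of a genotype differed far beyond counting noise (26.7 to 55.3 times its chi-square expectation). Separate animals are not stated in the labels, and the p-values therefore reflect spread among these libraries, which may be technical. The members and gene lists were chosen with earlier results of these data known, so list counts and medians are descriptions. Genes named were the members, Myc, up to 4 genes of smallest p in each of 5 other lists, and the 2 nearest profiles of each called member; overlapping genes and markers were added after their values were seen. Some genes of the lists are not reported here by name.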

Additional observations from a re-analysis of the deposited data

How the results depend on the processing

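Lef1, Tox, Gata3 and Myb were called higher in all 18 alternatives, with log2 changes of 1.09 to 1.26, 0.73 to 0.87, 0.57 to 0.70 and 0.44 to 0.57, and largest adjusted p of 0.00205, 0.00804, 0.0113 and 0.0304. Satb1, Runx3 and Ets1 were called in none. The count of members called higher was 4 to 6 (6 with equal library totals), and 4 to 5 on leaving out 1 library. With equal library totals 1827 of all 17815 tested genes were called higher, against 1414 in the main test. The count called lower was 0 in all alternatives but library weights, where it was 1 (Tcf7). Over all genes 1905 to 2788 were called on leaving out 1 library, with 1905 without wild-type replicate 2. The Runx3 to Runx1 difference ranged from -0.13 (without wild-type replicate 3) to 0.21 (without wild-type replicate 2) and the Lef1 to Tcf7 difference from 1.27 to 1.56 on leaving out 1 library. At low counts the change of Gm36931, which overlaps Satb1, lay between -0.28 and 0.52 on leaving out 1 library, being negative for mutant replicate 2 (-0.09), mutant replicate 3 (-0.28) and wild-type replicate 1 (-0.13). That of Gm16224, over Runx3, lay between -0.19 and 1.03, being negative for mutant replicate 2 (-0.19) and wild-type replicate 2 (-0.14). The cause was not tested.

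The values gave no sign that the label numbers pair the libraries: deviations of same-numbered libraries correlated at -0.02, -0.07 and -0.01. With 3 libraries per genotype these correlations cannot exclude a pairing, and the labels do not state one. With the replicate block 3066 genes were called, and among the members Bcl11b was called as well (0.31, adjusted p = 0.0476). The block left the ratio differences at 1.40 and 0.08. Gm16224 had 3.31 to 22.6 normalised reads in the mutant libraries and 2.87 to 12.7 in the wild-type libraries, while the lowest count of a member in any library was 1242 reads.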
